A study of Mus musculus with 5 samples.

Results

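The markers of crypt stem and progenitor cells described here were 9 genes chosen by name, Lgr5, Ascl2, Olfm4, Smoc2, Ephb2, Sox9, Prom1, Lrig1 and Msi1, and every array probe that could be paired with one of them was used. A probe was paired through its accession in a RefSeq table, which gave 14 of the 56605 probes on the array to 8 of the 9 genes. No probe matched the accession that the table holds for Olfm4, a secreted glycoprotein of crypt base cells, so it has no value here. The array does carry a probe of another Olfm4 transcript. The table pairs that transcript with no gene, so the probe was not read as Olfm4. RNA came from whole colon of wild-type mice of the strain written as C57BL/B6. The Control group held 2 samples, and the paper describes these animals as untreated. The NT-3N 3 hr group held 3 samples from mice injected intravenously with NT-3N, a modified human IL-11 that activates the IL-11 receptor, with the colon removed 3 hr later. The injected mice were 8 weeks old. The labels and the methods state the dose in different units, and no vehicle injection is given for Control mice, so the agonist and the injection itself cannot be told apart. Each array held the Cy3-labelled RNA of 1 sample. Slide and scan time were the same for all 5 arrays.

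The lining of the colon is renewed from the bottom of the crypts. Stem cells there divide under WNT signals, which R-spondins, secreted by stromal cells around the crypt, strengthen by binding receptors of the Lgr family and keeping Frizzled receptors at the cell surface. Ascl2 and Lgr5 are targets of this pathway, and Notch signalling among the daughter cells sets absorptive against secretory fate. IL-11 is a cytokine of the IL-6 family that acts through gp130 and STAT3. In the paper, cultured colon fibroblasts expressed its receptor gene at a high level, and organoids of normal colon epithelium did not. IL-11 led to STAT3 phosphorylation in both, less so in the organoids.

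The promoters of 2 markers are shown first. Of the 8 markers tested, each by its brightest probe, these 2 had Control and NT-3N arrays that did not overlap, in opposite directions. Among all features, 28.4% did not overlap. Ascl2 encodes the transcription factor that maintains stem cell identity, and Lrig1 a membrane protein that restrains signalling by ErbB receptors. Each run holds the 250 bases before the transcription start, 5′ to 3′ on the gene's strand, from RefSeq on GRCm38.p6. Ascl2 lies at chr7:142969265-142969514 on the minus strand and Lrig1 at chr6:94700146-94700395 on the minus strand. Capitals mark each C followed by G.
Ascl2: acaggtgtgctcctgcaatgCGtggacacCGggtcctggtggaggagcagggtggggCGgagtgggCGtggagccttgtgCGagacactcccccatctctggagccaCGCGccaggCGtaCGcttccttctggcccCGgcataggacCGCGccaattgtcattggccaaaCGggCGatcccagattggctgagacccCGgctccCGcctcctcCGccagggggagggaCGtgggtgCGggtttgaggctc
Lrig1: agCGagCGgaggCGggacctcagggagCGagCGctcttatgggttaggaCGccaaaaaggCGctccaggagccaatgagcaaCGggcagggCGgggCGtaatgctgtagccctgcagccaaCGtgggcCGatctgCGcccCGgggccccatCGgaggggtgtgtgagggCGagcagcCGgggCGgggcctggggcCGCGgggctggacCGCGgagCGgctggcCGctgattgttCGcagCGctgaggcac

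The Ascl2 window held 19 CpG sites at 67.6% G and C, and the Lrig1 window 26 CpG sites at 71.6%. The medians over all 32851 windows were 6 CpG sites and 52.4%. Windows were available for 5 of the 9 markers, with 2 starts for Prom1. None of these 6 windows held the STAT motif TTCNNNGAA or the TCF/LEF core CTTTGA on either strand, while 7.02% of all windows held the first and 13.8% the second. Matches to the 2 motifs may share bases where they adjoin, which affects no count of 0. The search says only that these letters are missing from these windows.

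Values are log2 signals, background-subtracted and quantile-normalized between arrays, and a fold change is the NT-3N mean minus the Control mean on that scale. Signals of different probes are not compared, since each probe binds with its own strength. Of the 14 probes, 13 were tested, and each of these was well above background on every array. The second probe of Msi1 was not well above background on any array. It read 3.44 and 3.22 on the Control arrays, and 2.44, 3.24 and 2.69 on the NT-3N arrays.

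After Benjamini-Hochberg adjustment in limma, 0 of the 8 markers tested differed between NT-3N and Control mice, where 0.143% of all 32917 features did. At an unadjusted p under 0.05 there were 2 markers of 8, Lrig1 with higher and Ascl2 with lower values, beside 9.62% of all features. The same 2 markers were the ones whose groups did not overlap, beside 28.4% of all features. The median log2 fold change of the 8 markers was -0.0031, and that of all features was -0.019. Tested probe by probe, 0 of the 13 probes passed an adjusted p under 0.05, beside 0.168% of 41590 probes.

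**Figure D1:**
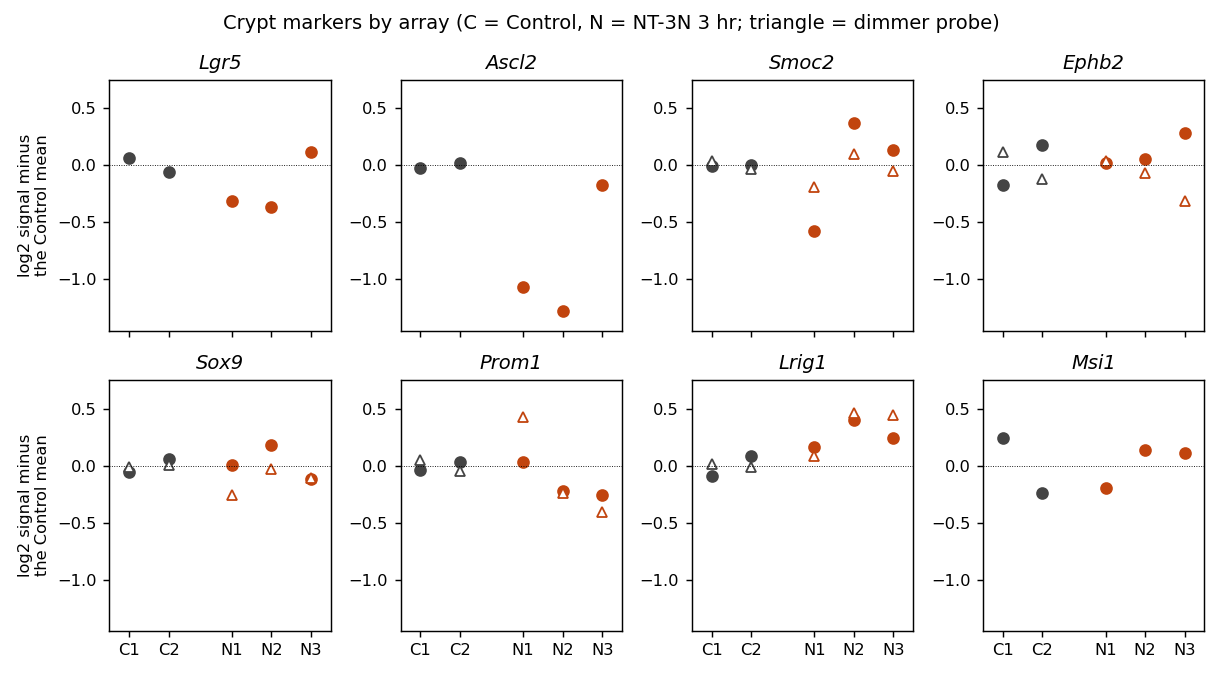
Log2 signal of each probe minus its own Control mean (vertical axis), by array (horizontal axis), for the 8 markers. Black points are the 2 Control arrays and orange points the 3 NT-3N arrays, and open triangles are the dimmer of 2 probes. Ascl2 lies more than 1 log2 unit below the Control mean on 2 NT-3N arrays, and both Lrig1 probes lie above it on all 3.

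Among the WNT-dependent markers, Ascl2 read 11.57 and 11.61 on the Control arrays, and 10.52, 10.32 and 11.42 on the NT-3N arrays. NT-3N replicates 1 and 2 thus lay 1.07 and 1.28 below the Control mean, and replicate 3 lay 0.17 below it, closer to the Control arrays than to the other two. The log2 fold change was -0.84 (SE 0.31, 95% interval -1.60 to -0.085), a level 0.558 of Control, with limma's unadjusted p at 0.034 and its adjusted p at 0.479. The SD was 0.028 over the 2 Control arrays and 0.59 over the 3 NT-3N arrays. Leaving out NT-3N replicate 3 gave -1.18 with an adjusted p of 0.174, and leaving out replicate 2 gave -0.62 with an adjusted p of 0.799. The local-pooled-error test, which the study's methods name, called Ascl2 with an adjusted p of 0.000322. That test compares group medians, not means, and takes its spread from other features of like signal. The NT-3N median of Ascl2 is the value of replicate 1, so the call does not rest on the -0.84 above. In simulated data 53.3% of its calls were false, against 6.39% for limma. Those data took their spread from limma's own fitted model, which favours limma. The 2 shares therefore cannot decide between the tests on these arrays.

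Lgr5, the R-spondin receptor that defines crypt base stem cells, read 8.90 and 8.78 on the Control arrays, and 8.52, 8.47 and 8.96 on the NT-3N arrays. The 2 NT-3N arrays that were low for Ascl2 were also the low ones for Lgr5, and replicate 3 was above both Control arrays. The log2 fold change was -0.19 (SE 0.17, 95% interval -0.60 to 0.23, adjusted p = 0.764 in limma). It was -0.34 without NT-3N replicate 3 and -0.097 without NT-3N replicate 2. In whole tissue, fewer cells of a type and less RNA per cell cannot be told apart.

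Smoc2 encodes a secreted matrix protein that marks stem cells at the crypt base and is also made by stromal cells. Its brighter probe read 11.94 and 11.95 on the Control arrays, and 11.37, 12.32 and 12.09 on the NT-3N arrays. Replicate 1 was below both Control arrays, and the other two were above them. The log2 fold change was -0.024 (SE 0.26, 95% interval -0.66 to 0.61). The sign turned with other settings, to 0.25 without NT-3N replicate 1. The dimmer probe read 9.83, 10.13 and 9.98 on the NT-3N arrays against 10.06 and 9.99 on the Control arrays. NT-3N replicate 1 was lowest there too, but replicate 3 lay just below both Control arrays and only replicate 2 above them.

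Ephb2, a receptor tyrosine kinase that keeps progenitors in the lower crypt, read 11.59 and 11.94 on the Control arrays with its brighter probe, and 11.78, 11.82 and 12.05 on the NT-3N arrays. The groups overlapped, and the log2 fold change was 0.12 (SE 0.14, 95% interval -0.21 to 0.46). The second probe, matched to another transcript, went the other way, with a log2 fold change of -0.12 (95% interval -0.47 to 0.24). Its arrays overlapped too, with 9.10 and 8.86 in Control mice and 9.01, 8.91 and 8.67 in NT-3N mice.

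Sox9, a transcription factor of crypt progenitors, read 11.00 and 11.12 on the Control arrays, and 11.07, 11.24 and 10.95 on the NT-3N arrays. The NT-3N arrays lay on both sides of the Control arrays, and the log2 fold change was 0.023 (SE 0.12, 95% interval -0.25 to 0.30). Its dimmer probe read 8.67 and 8.69 in Control mice against 8.43, 8.66 and 8.58 in NT-3N mice, a log2 fold change of -0.13 (95% interval -0.41 to 0.15). These groups did not overlap for the dimmer probe, but the nearest arrays were 8.66 and 8.67.

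Of the surface markers, Lrig1 read 12.62 and 12.79 on the Control arrays with its brighter probe, and 12.87, 13.11 and 12.95 on the NT-3N arrays. All 3 NT-3N arrays lay above both Control arrays. The log2 fold change was 0.27 (SE 0.10, 95% interval 0.018 to 0.52), a level 1.21 times Control, with limma's unadjusted p at 0.039 and its adjusted p at 0.492. The dimmer probe read 10.31 and 10.29 in Control mice against 10.39, 10.77 and 10.75 in NT-3N mice, a log2 fold change of 0.33 (SE 0.14). The probes match the same transcript and were read on the same arrays, so the second is no independent measurement. Leaving out Control replicate 1 gave the lowest value of the brighter probe, 0.18, and leaving out Control replicate 2 the highest, 0.36.

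Prom1, the membrane protein CD133, read 10.51 and 10.58 on the Control arrays with its brighter probe, and 10.58, 10.33 and 10.29 on the NT-3N arrays. NT-3N replicate 1 overlapped with the Control arrays and the other two were lower, and the log2 fold change was -0.15 (SE 0.12, 95% interval -0.44 to 0.14). Leaving out 1 array gave values from -0.24, without NT-3N replicate 1, to -0.095. The probe matched to another transcript spread more widely, with 9.65, 8.99 and 8.83 on the NT-3N arrays against 9.28 and 9.18 on the Control arrays. Replicate 1 was the highest of the 5 arrays there, and the log2 fold change was -0.075 (95% interval -0.66 to 0.51).

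Msi1, an RNA-binding protein that represses translation of the Notch inhibitor Numb, read 11.65 and 11.17 on the Control arrays, and 11.21, 11.55 and 11.52 on the NT-3N arrays. The 2 Control arrays differed by 0.48, more than the 3 NT-3N arrays did among themselves, and the NT-3N values fell between them. The log2 fold change was 0.018 (SE 0.18, 95% interval -0.41 to 0.44).

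The 95% intervals of 7 markers, all but Ascl2, lay within a 2-fold change in either direction. The interval of Ascl2 ran from 0.331 to 0.943 of the Control level. With 2 against 3 arrays, the smallest p that an exact permutation test can give for 1 gene is 0.1. In data simulated on these arrays, limma called 33.2% of features changed 2-fold and 75.2% of those changed 4-fold, so a 2-fold change was often missed. The changed features were drawn from all 32917 tested, dim ones included, so these shares are not those of the markers themselves.

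**Figure D2:**
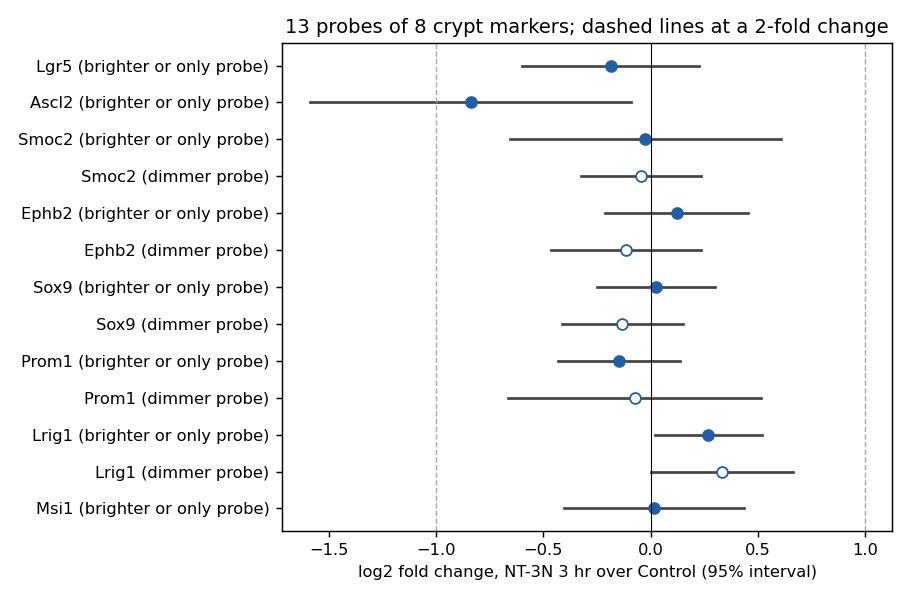
Log2 fold change of NT-3N 3 hr over Control (horizontal axis) with its 95% interval (bar) for each of the 13 probes tested, from limma with every probe as its own feature. Filled points are the brighter or only probe of a gene and open points the dimmer one. The dashed lines stand at a 2-fold change, and only the Ascl2 bar passes one.

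The niche ligands, secreted proteins that act on the crypt, were the 1 pathway list with a called gene. Rspo3, R-spondin 3, is a secreted ligand of Lgr5 and its relative Lgr4. It read 9.04 and 9.09 on the Control arrays, and 10.28, 10.69 and 10.55 on the NT-3N arrays. Every NT-3N array lay at least 1.21 above the Control mean, while the Control arrays differed by 0.046. Rspo3 rose by 1.44 on the log2 scale (SE 0.14, adjusted p = 0.0345 in limma), which is 2.71 times the Control level with a 95% interval of 2.15 to 3.43 times. The call was kept under 13 of 20 alternatives and lost under 7, among them leaving out any one array other than NT-3N replicate 1, while the value stayed between 1.35 and 1.55 (adjusted p from 0.00186 to 0.491).

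Of the 8 ligands in that list, 6 could be tested, 4 with higher and 2 with lower values, and their median log2 fold change was 0.42, or 0.84 without NT-3N replicate 1 and 0.099 without replicate 3. Rspo2 and Wnt3 were well above background on 1 array each and were not tested. The BMP antagonist Grem1, named after its values were seen, read 10.80 and 10.81 on the Control arrays, and 10.93, 12.22 and 12.03 on the NT-3N arrays. Only replicates 2 and 3 stood clearly above the Control arrays, and the log2 fold change was 0.92 (SE 0.37, adjusted p = 0.501 in limma). Without NT-3N replicate 1 it was 1.32 with an adjusted p of 0.0192, and leaving out another array gave values down to 0.68. Grem1 was called in 2 of 20 alternatives and not called in 18.

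NT-3N replicate 1 also had the lowest signal of the distal colon markers, which are Hox genes of the hindgut. Summed over 2 genes, this signal was 37128 and 27734 on the Control arrays, and 24905, 44262 and 43794 on the NT-3N arrays. Smoc2 and Grem1 had the same order of the 3 NT-3N arrays, with replicate 1 lowest and replicate 2 highest. So did the summed fibroblast markers (60521, 90468 and 78979), smooth muscle markers (331061, 422707 and 393511) and goblet cell markers (945531, 1441090 and 1233520), so the match is not particular to the distal colon markers. The part of the stretch of colon sampled, or of tissue makeup, in those values was not tested.

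The WNT receptors gave no call among 5 genes tested, 2 with higher and 3 with lower values, with a median log2 fold change of -0.062. Lgr4, an R-spondin receptor found along the whole crypt, read 10.82 and 10.59 on the Control arrays, and 10.88, 11.07 and 11.14 on the NT-3N arrays. Its groups did not overlap by a narrow margin, and its log2 fold change was 0.33 (SE 0.12, unadjusted p = 0.034, adjusted p = 0.479 in limma). Its second probe went the other way, with 10.31 and 9.80 against 9.75, 10.22 and 9.65, and the mean of both probes gave a log2 fold change of 0.075. The co-receptor Lrp5 had a log2 fold change of -0.15 and Fzd7, a Frizzled receptor, one of -0.23, both with an unadjusted p above that of Lgr4, and the value of Fzd7 was -0.0025 without NT-3N replicate 1.

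Among 13 targets and feedback genes of the WNT pathway, 0 were called, with 6 higher and 7 lower values and a median of -0.13. Myc, a transcription factor that drives growth, read 8.51 and 8.59 on the Control arrays, and 9.13, 9.31 and 9.61 on the NT-3N arrays. Its log2 fold change was 0.80 (SE 0.16), with limma's unadjusted p at 0.0020 and its adjusted p at 0.196. A second probe of Myc read 8.80 and 8.31 against 8.48, 8.72 and 8.37, with overlapping groups and a log2 fold change of -0.033, and the mean of both probes gave 0.38. The secreted WNT inhibitor Notum read 11.60 and 11.59 against 11.18, 11.46 and 11.35, and the receptor Tnfrsf19 read 7.73 and 8.08 against 7.52, 7.41 and 7.57. Both had lower values on all 3 NT-3N arrays, with log2 fold changes of -0.27 and -0.41 and adjusted p-values of 0.504 and 0.480. Their second probes differed from these. That of Notum overlapped between groups with a log2 fold change of 0.22, which left -0.023 for the mean of both. That of Tnfrsf19 read 7.81 and 8.32 against 6.56, 6.75 and 6.98, a log2 fold change of -1.30, with a mean of both of -0.85 (unadjusted p = 0.0022). At an unadjusted p under 0.05 there was 1 gene with higher and 2 with lower values among these 13, beside 9.62% of all features. That count takes each gene by its brightest probe only.

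**Figure D3:**
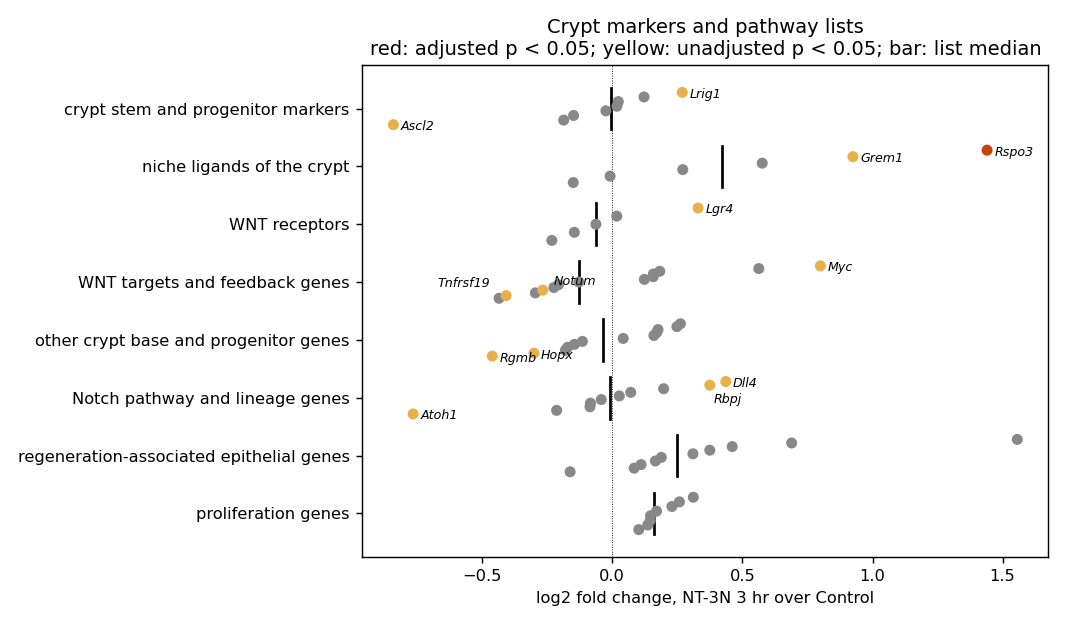
Log2 fold change of NT-3N 3 hr over Control (horizontal axis) for each gene tested in the list of crypt markers and 7 pathway lists (vertical axis), with a black bar at the median of each list. Red marks an adjusted p under 0.05, which Rspo3 alone reached, and yellow an unadjusted p under 0.05.

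Other genes of the crypt base and of progenitors gave 0 calls among 12 tested, 6 with higher and 6 with lower values, with a median of -0.036. Hopx, a homeodomain protein that marks slowly dividing cells, read 11.15 and 11.33 on the Control arrays, and 10.92, 10.96 and 10.95 on the NT-3N arrays. Its 3 NT-3N arrays lay close together and below both Control arrays, with a log2 fold change of -0.30 (SE 0.095, unadjusted p = 0.018, adjusted p = 0.411 in limma). Rgmb, a BMP co-receptor, had a log2 fold change of -0.46 (SE 0.15, adjusted p = 0.419 in limma), with no overlap, and its second probe one of -0.12 with overlap. Cdca7, a chromatin protein of dividing cells, had one of 0.26 (SE 0.12, adjusted p = 0.556 in limma).

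In the Notch pathway and lineage list, 0 of 10 genes were called, 5 with higher and 5 with lower values, with a median of -0.0073. Atoh1, the transcription factor that commits progenitors to the secretory lineage, read 12.44 and 12.86 on the Control arrays, and 11.69, 11.89 and 12.06 on the NT-3N arrays. All 3 NT-3N arrays were below both Control arrays, with a log2 fold change of -0.76 (SE 0.16, unadjusted p = 0.0028, adjusted p = 0.225 in limma). Rbpj, the transcription factor through which Notch acts, had a log2 fold change of 0.37 (SE 0.11, adjusted p = 0.371), and the Notch ligand Dll4 one of 0.44 (SE 0.15, adjusted p = 0.462). Both had higher values on all 3 NT-3N arrays. The 7 goblet cell markers, genes of the lineage that Atoh1 sets, were all lower in NT-3N mice by their means, with a median of -0.14 and 0 called. This rested on NT-3N replicate 1: without it 3 were higher and 4 lower, with a median of -0.0047, and without Control replicate 2 the split was also 3 against 4.

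**Figure D4:**
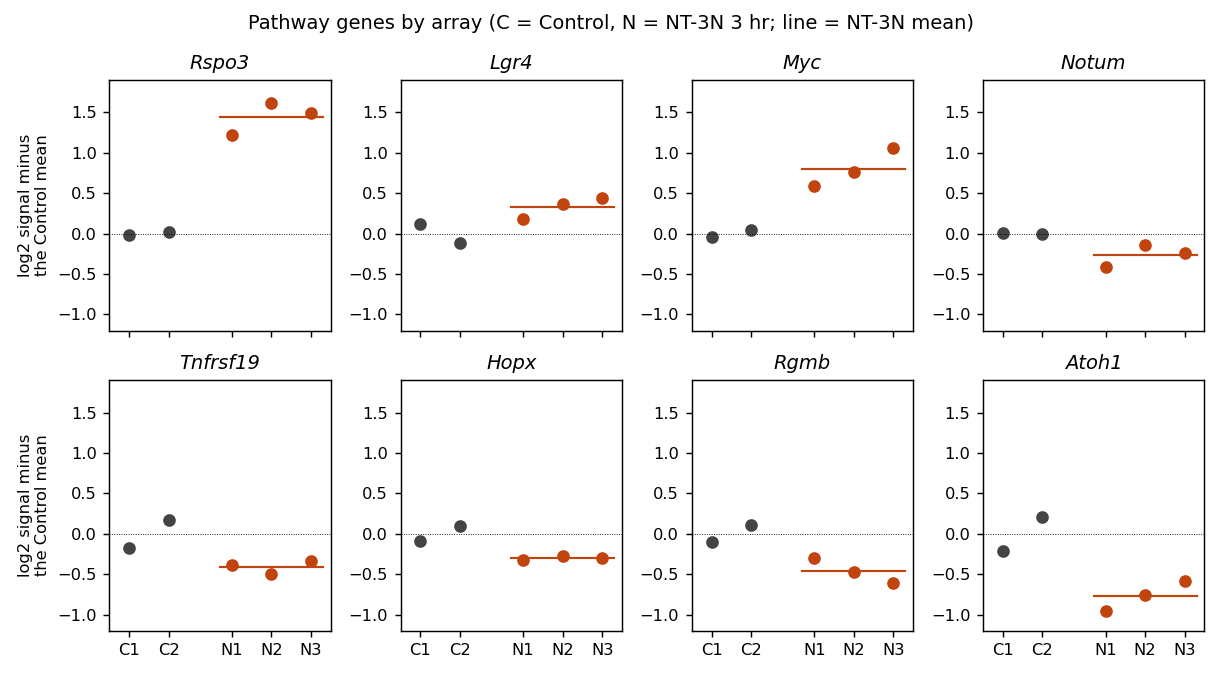
Log2 signal minus the Control mean (vertical axis) by array (horizontal axis) for 8 genes around the crypt markers. Black points are the 2 Control arrays, orange points the 3 NT-3N arrays and orange lines the NT-3N means. The 3 Rspo3 points lie between 1.21 and 1.62, and those of Atoh1 between -0.96 and -0.58.

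The genes that the epithelium switches on in regeneration gave 0 calls among 10, with 9 higher, 1 lower and a median of 0.25. Without NT-3N replicate 2, 4 of the 9 genes then tested were higher and the median was -0.051. The log2 fold changes of Msln, Il1rn and Clu were 1.56, 0.38 and 0.69, and the groups overlapped for each. The Control arrays differed widely, with 13.55 and 12.05 for Clu. Leaving out 1 array moved Msln from 0.41 to 2.71, Il1rn from 0.13 to 0.62 and Clu from -0.061 to 1.44. All 8 proliferation genes were higher in NT-3N mice by their means, with a median of 0.16 and 0 called, also at an unadjusted p under 0.05. Control replicate 1 carried this, with a summed signal of 20419 against 25436 on Control replicate 2 and 24880 to 26305 on the NT-3N arrays. Without it 4 genes were higher and 4 lower, with a median of -0.0016. With all arrays their log2 fold changes ran from 0.10 to 0.31, and Ccnb1, a cyclin of mitosis, had the largest. The arrays of 7 of these 8 genes overlapped.

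The label of colon tissue was checked against markers of the cell types that whole colon holds. All 10 pan-epithelial markers tested, among them Epcam and the adhesion protein Cdh1, lay well above background on every array, and Cdx1 was left out because a spot was flagged as an outlier on Control replicate 1. The summed signal of these markers was 640935 to 663427 on the Control arrays and 631518 to 679350 on the NT-3N arrays. The median log2 fold change was -0.050 with 0 called, and those of Epcam, Cdh1, Cldn3 and the gut transcription factor Cdx2 were -0.10, -0.030, -0.078 and -0.46. Relative to the mean of this list, the log2 fold change of Ascl2 was -0.77, that of Lrig1 0.34 and that of Rspo3 1.51.

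The summed signal of the 8 crypt markers was 23557 to 24620 on the Control arrays and 21554 to 25903 on the NT-3N arrays. All 8 smooth muscle markers had lower means in NT-3N mice, with a median of -0.33 and 0 called. The groups did not overlap for 7 of these 8, beside 28.4% of all features. All 8 stayed lower leaving out any 1 array, with medians from -0.42 to -0.18. Their summed signal was 452303 to 467075 on the Control arrays and 331061 to 422707 on the NT-3N arrays. Fibroblast markers, from cells that make R-spondins, summed to 66013 to 72587 on the Control arrays and 60521 to 90468 on the NT-3N arrays, with a median of 0.047 and 0 of 8 called. Pdpn, podoplanin, a surface protein of fibroblasts and lymphatic endothelium, stood apart from that median. It read 10.33 and 10.66 on the Control arrays and 11.67, 12.13 and 12.16 on the NT-3N arrays, a log2 fold change of 1.49 (SE 0.18, adjusted p = 0.0672 in limma). Among leukocyte markers, Ms4a1, the B cell protein CD20, read 4.95 and 6.53 on the Control arrays and 9.54, 9.13 and 9.51 on the NT-3N arrays. Its log2 fold change was 3.65 (SE 0.43, adjusted p = 0.0595 in limma). Cd79a, another B cell gene of that list, overlapped between the groups. It read 6.89 and 5.05 on the Control arrays and 6.56, 6.62 and 6.91 on the NT-3N arrays. The log2 fold change of Cd79a was 0.73 (adjusted p = 0.686 in limma). Of the 6 leukocyte markers, 4 had higher and 2 lower values. The groups did not overlap for 2 of the 8 fibroblast markers, Pdpn among them. They did not overlap for 1 of the 6 leukocyte markers, Ms4a1, beside 28.4% of all features. Pdpn passed an adjusted p under 0.05 in 5 and Ms4a1 in 9 of 20 alternatives. No call was made among 6 colonocyte, 8 enteric neuron and glia, 6 leukocyte, 4 fat or 2 distal colon markers. Their summed signals on the Control and NT-3N arrays were 591683 to 619717 and 485321 to 680942 for colonocytes, 36426 to 38333 and 30717 to 36109 for enteric neurons and glia, and 42538 to 46672 and 35561 to 48831 for leukocytes. Fat markers varied most, with sums of 1323 and 11770 on the Control arrays and 416 to 7251 on the NT-3N arrays. The part of tissue makeup in the values above was not tested.

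**Figure D5:**
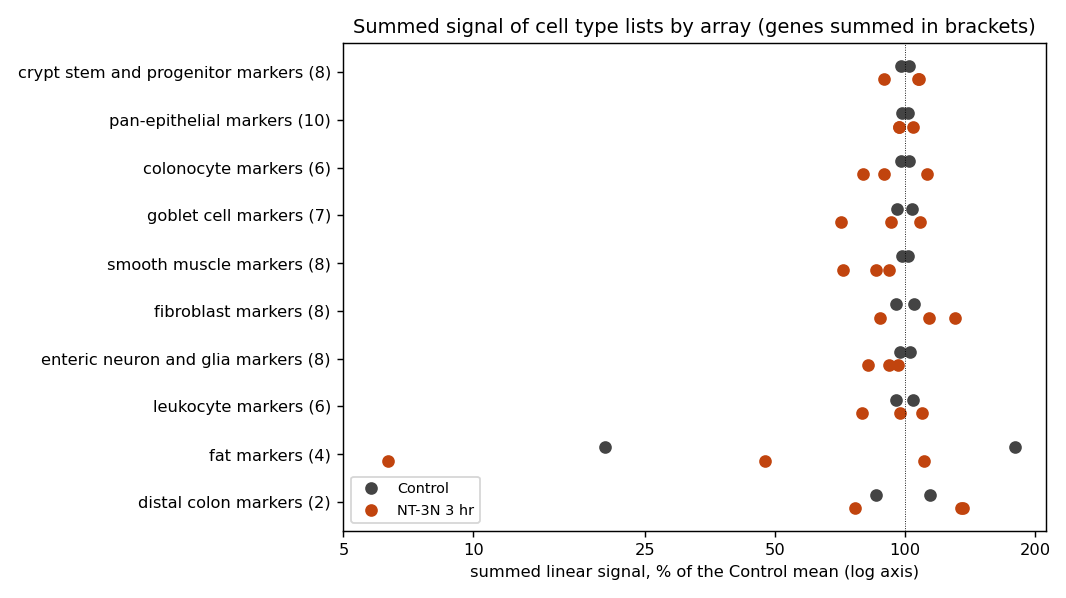
Linear signal summed over the genes of each list (number in brackets) as a percent of its Control mean, on a log axis, for the 2 Control arrays (black) and the 3 NT-3N arrays (orange). The crypt markers lie between 89.5 and 108 percent and the pan-epithelial markers between 96.8 and 104 percent, while fat markers run from 6.35 to 180 percent.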

How the data were processed

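The authors hybridised Cy3-labelled RNA of whole colon to 1-colour Agilent SurePrint G3 mouse arrays and read them with Agilent Feature Extraction 11.0.1.1, per the submitters' processing notes. The deposited scanner files hold a background-subtracted intensity per spot with flags for outliers and for signal above background. The authors also deposited log2 values of 37380 probes, which correlated at 0.9999 or more with the quantile-normalized intensity on each array and served as an alternative. Here control spots and outlier spots (69 to 184 of 59305 per array) were left out, log2 intensities were quantile-normalized, and probes well above background on at least 2 of 5 arrays, with values on both Control and at least 2 NT-3N arrays, were kept. Per array, 70.6% to 72.9% of probes were well above background and no spot was saturated. RefSeq (GRCm38.p6) named 32994 of 56605 probes, and the brightest probe stood for a gene.

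Control and NT-3N arrays were tested against each other in limma 3.58.1 under R 4.3.3 (lmFit, eBayes with an intensity trend, two-sided), adjusted by Benjamini-Hochberg over 32917 features. The local-pooled-error test of the methods was an alternative. Both tests were tried on simulated data, whose spread was drawn from limma's fitted model. The methods give 3 injected mice, as many as the NT-3N samples. For Control no source says that each sample was 1 mouse, so p-values measure only the spread between these samples. The number of arrays limits the precision. The members and lists were chosen with earlier results of these data known. Of each pathway list and of the pan-epithelial list, every called gene is named, otherwise up to 3 with the smallest p, and the first 2 of the pan-epithelial list. The rule also covered the other cell type lists, which are given by counts and summed signals. From these, Pdpn, Ms4a1 and Cd79a were named after their values were seen.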

Additional observations from a re-analysis of the deposited data

How the results depend on the processing

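The 8 crypt markers and 26 further genes were followed over 20 alternatives, and no marker was called by limma in any of them. The count of markers at an unadjusted p under 0.05, 2 as reported, was 1 with median scaling, normexp background, no filter on dim probes, robust variance or the local-pooled-error test, 0 with no intensity trend, and 0 to 2 leaving out 1 array (0 where either Control replicate 1 or NT-3N replicate 2 was dropped). The local-pooled-error test called 1 marker lower (Ascl2), 2 niche ligands, 1 Notch gene (Atoh1, adjusted p = 0.0145) and 1 regeneration gene (Clu, adjusted p = 0.0317). Niche ligands called, 1 as reported, were 0 with no filter, no intensity trend or the replicate block, and 0 to 2 leaving out 1 array (2 without NT-3N replicate 1, 0 without each of the other 4). Why these counts moved was not tested.

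Some fold changes turned sign. Smoc2 was 0.011 with median scaling, 0.049 centred on pan-epithelial markers, 0.17 with array weights and 0.14 by the local-pooled-error test. Cdh1 was 0.0059, 0.043 and 0.0053 with median scaling, centring and normexp. Msi1 was -0.027 with the replicate block and Sox9 -0.054 as the mean of its probes. Leaving out 1 array moved Smoc2 from -0.22 to 0.25, Ephb2 from -0.052 to 0.30, Sox9 from -0.054 to 0.093, Msi1 from -0.22 to 0.26, Cdh1 from -0.063 to 0.0045 and Clu from -0.061 to 1.44.

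Same-numbered samples deviated together with correlations of 0.13 and 0.036 over 2 pairs. The deviations of the 2 Control arrays mirror each other, so these values are not independent. They cannot show whether the numbers pair the samples. Under the replicate block, 0 features were called (2488 at an unadjusted p under 0.05), and Rspo3 kept a log2 fold change of 1.42 with an adjusted p of 0.491. Over all features, calls numbered 47 as reported, 0 to 116 leaving out 1 array, 2 with no filter or no intensity trend, 170 with array weights and 348 by the local-pooled-error test. Slide and scan time as a block could not be fitted, since all arrays shared both.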
